A study of Mus musculus with 5 samples.

Results

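The genes described here encode the enzymes and carriers that take up glucose, break it down to pyruvate and lactate, divert it into the pentose phosphate pathway, or store it as glycogen. They were named as a list of 38 genes by their place in these pathways, and each was read from the brightest of its array probe sets that is paired with exactly 1 gene symbol. Of the 38, 34 had such a probe set in the comparison, which covered 12446 of the 18193 genes named on the array, and none of the 34 fell below the limit on dim signals. Gpi1, Eno1 and G6pdx had no probe set with a single symbol and were not analysed here, and Gapdh had a single symbol only on the array's control probe sets.

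RNA came from 2 sources of activated CD8 T cells that recognise the same insulin B chain peptide. The first was G9C8, 1 clone kept in culture, of which 3 separately frozen vials were thawed. The second was spleen cells of 2 NOD.G9C8 transgenic mice, aged 4 to 8 weeks, which carry the receptor of that clone on the NOD/LtJ background. Both had 3 days with the peptide at 10 µg/ml and then 2 days in IL2 at 5 IU/ml, and were hybridised as total RNA, 1 array for each vial or mouse. The clone group is therefore a single clone, and no sort of the spleen cultures is stated. The promoter that drives the transgenic receptor is not given in the sources used here.

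Glycolysis splits glucose into pyruvate and yields ATP without oxygen, and activated T cells are known for running it fast and exporting the product as lactate. The pentose phosphate pathway branches off after the first step and supplies NADPH and ribose for nucleotides. Many steps have several isoforms, encoded by separate genes and used by different tissues, and several of these genes are known targets of the oxygen-regulated factor HIF1A and of MYC.

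T cell genes were bright in both groups: the surface marker Thy1 averaged 15003 on the clone arrays and 14052 on the others and was not called (difference 0.09, adjusted p = 0.453), and Cd3d, a chain of the receptor complex, was lower in clone (12434 against 17482; -0.49, adjusted p = 0.00828). The summed signal of 9 T cell markers was 64263 to 72890 on the clone arrays and 85356 to 94110 on the transgenic arrays, and 5 of these markers were lower and 0 higher in clone. The summed signal of 14 myeloid markers moved with the groups too, at 5406 to 5967 in clone and 15315 to 15876 in transgenic cells. Of the 12 that were tested, 9 were lower and 0 higher in clone by limma, among them the lysozyme gene Lyz2 (279 against 4523) and the protease gene Ctss (3793 against 7022). Fcgr3 (-3.98), Tyrobp (-3.50), Cybb (-2.84) and Cd14 (-2.77) were lower too. Cd68, on the same list, went the other way without a call by limma (difference 0.50, adjusted p = 0.0700). It gave 570, 828 and 627 in clone against 399 and 546. Itgam (mean 20.1 against 118) and Mpeg1 (19.2 against 99.3), the 2 myeloid markers that were not tested, fell below the limit on dim signals, a mean of 88.2 over the 5 arrays. Among markers of other cells, 1 of 5 tested B cell genes was higher (Ebf1, by 2.44 on the log2 scale) and 1 lower (Cd79b, by a difference of -3.92). Eomes, listed for natural killer cells and also made by CD8 T cells, was lower (-4.14), as were 2 of 5 tested dendritic cell genes, among them Itgax (-2.07), and 1 of 2 tested platelet genes, Pf4 (-3.54). The clone means of Fcgr3, Tyrobp, Cybb, Cd14, Cd79b and Eomes and the transgenic mean of Ebf1 were under 88.2, so these genes passed the limit only through the other group and their differences rest on a dim signal. No tested gene on the CD4 T cell, neutrophil and erythroid lists was called. Beside these marker counts, 22.0% of all tested genes were called higher and 21.7% lower in clone. In these bulk cultures, fewer cells of a type and less RNA per cell cannot be told apart.

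Differences below are clone minus transgenic on the log2(signal + 20) scale, so that 1 means a doubling and dim genes are understated. The test was limma, fitted on all genes with Benjamini-Hochberg adjustment over all of them, and adjusted p-values under 0.05 count as calls. Of the 34 members, 12 were called higher and 6 lower in clone and 16 were not called. The share of all tested genes called was 43.8% in either direction, 22.0% higher and 21.7% lower, against 35.3% higher and 17.6% lower among the members. The clone arrays lay wholly above the transgenic arrays for 14 members (31.9% of all tested genes) and wholly below for 8 (32.6%), 64.5% of all tested genes being apart in either direction. The members' median difference was 0.11, beside -0.01 over all genes.

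**Figure D1:**
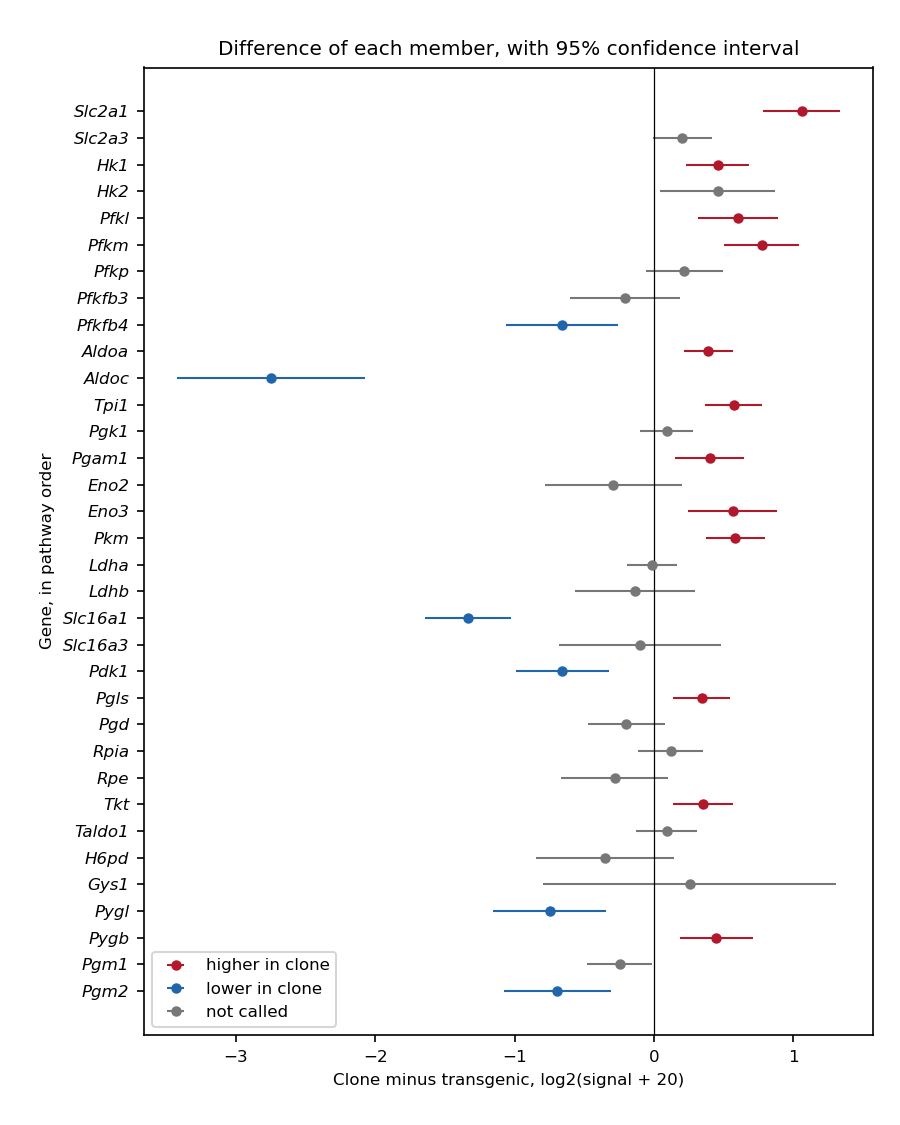
Difference of each of the 34 members, clone minus transgenic on the log2(signal + 20) scale (x axis), with its 95% confidence interval, in pathway order. Red points are called higher, blue lower and grey not called; Aldoc lies farthest from 0, at -2.75, and Slc2a1 is the highest, at 1.06.

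The members fell into 4 parts of the map. Of all tested genes, 22.0% were called higher and 21.7% lower. From glucose uptake to pyruvate, 9 of 17 were higher, 2 lower and 6 not called, with a median of 0.40. Of the 5 genes that act on pyruvate or lactate, 0 were higher, 2 were lower and 3 were not called, with a median of -0.14. Of 7 pentose phosphate genes, 2 were higher, 0 lower and 5 not called (median 0.09), and of 5 glycogen genes 1 was higher, 2 were lower and 2 were not called (median -0.25).

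The stretches before the start sites of 6 members are printed because these genes carry the results on uptake and export of sugar and lactate or form the 2 isoform pairs in which both genes were called, in opposite directions: the glucose importer Slc2a1, the lactate and pyruvate carrier Slc16a1, the aldolases Aldoa and Aldoc, and the glycogen phosphorylases Pygl and Pygb. Each is the 250 bases before an annotated start in RefSeq, build GRCm38.p6, from 5′ to 3′ on the gene's strand. Capitals mark ACGTG or GCGTG on either strand, the core letters that HIF1A binds; ACGTG also lies within the E-box CACGTG, which MYC and related factors bind.
Slc2a1, chr4:119108495-119108744, plus strand: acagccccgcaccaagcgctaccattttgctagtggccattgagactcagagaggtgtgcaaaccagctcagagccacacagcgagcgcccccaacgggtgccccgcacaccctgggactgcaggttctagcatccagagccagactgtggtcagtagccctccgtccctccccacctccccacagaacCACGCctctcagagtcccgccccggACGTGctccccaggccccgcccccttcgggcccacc
Aldoa, chr7:126799179-126799428, minus strand: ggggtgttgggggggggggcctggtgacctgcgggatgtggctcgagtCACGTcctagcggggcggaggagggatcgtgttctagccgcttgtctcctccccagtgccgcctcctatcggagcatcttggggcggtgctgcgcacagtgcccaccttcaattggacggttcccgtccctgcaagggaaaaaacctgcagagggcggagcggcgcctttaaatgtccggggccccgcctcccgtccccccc
Aldoc, chr11:78322823-78323072, plus strand: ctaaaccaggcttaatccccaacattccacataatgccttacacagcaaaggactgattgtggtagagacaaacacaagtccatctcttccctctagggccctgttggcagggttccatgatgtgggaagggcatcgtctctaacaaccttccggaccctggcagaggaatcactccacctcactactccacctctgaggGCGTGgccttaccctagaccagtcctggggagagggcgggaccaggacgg
Slc16a1, chr3:104638414-104638663, plus strand: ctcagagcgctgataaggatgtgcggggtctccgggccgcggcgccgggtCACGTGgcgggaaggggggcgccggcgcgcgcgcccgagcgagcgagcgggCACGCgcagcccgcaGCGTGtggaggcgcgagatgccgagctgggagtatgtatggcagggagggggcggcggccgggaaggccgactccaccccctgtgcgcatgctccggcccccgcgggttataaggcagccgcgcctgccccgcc
Pygl, chr12:70227684-70227933, minus strand: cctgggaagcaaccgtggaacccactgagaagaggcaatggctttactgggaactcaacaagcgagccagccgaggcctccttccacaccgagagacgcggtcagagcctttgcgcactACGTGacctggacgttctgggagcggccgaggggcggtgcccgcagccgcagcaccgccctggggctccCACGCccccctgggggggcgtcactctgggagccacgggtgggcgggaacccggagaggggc
Pygb, chr2:150786546-150786795, plus strand: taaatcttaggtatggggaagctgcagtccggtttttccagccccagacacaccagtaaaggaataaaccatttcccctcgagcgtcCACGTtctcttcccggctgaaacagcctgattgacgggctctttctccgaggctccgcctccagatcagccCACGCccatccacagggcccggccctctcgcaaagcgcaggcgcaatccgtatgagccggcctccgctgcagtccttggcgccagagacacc
Where several starts are annotated (3 for Aldoa and 2 for Aldoc), a window with the most matches is shown. An Aldoa window not shown held no match. In both genes other windows tied, and the tied window of lowest coordinate was taken.

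The windows shown held 1 match in Aldoa and 1 in Aldoc, and 2 each in Slc2a1, Pygl and Pygb. That of Slc16a1 held 4, where a pair overlaps in the E-box 200 bases before the start. Genes that were higher and genes that were lower in clone both carried such letters. The shares that follow count windows, not genes. Windows of the same gene can overlap, as in Aldoa, Pfkm and Eno1, so the same site can count more than once. Of the 37 members with a window, 51 windows in all, 76.5% of windows held ACGTG or GCGTG, against 38.6% of all 32851 windows and 53.9% of the 12829 windows of tested genes. The share was 73.7% of 19 windows of members higher in clone, 87.5% of 8 windows of members lower and 72.2% of 18 windows of members not called. The E-box alone was in 7.84% of member windows, 6.02% of all windows and 8.05% of those of tested genes. Member windows were also rich in G and C, with a median of 60% against 52.4% over all windows and 59.2% over those of tested genes. Slc2a3 is not among the genes with a window.

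Glucose enters T cells through facilitative carriers. Slc2a1, the main glucose transporter of dividing cells, gave signals of 1870, 2021 and 1952 in the 3 clone vials and of 823 and 1035 in the 2 mice. The groups did not overlap, and the difference was 1.06 (SE 0.12, adjusted p = 0.000195), a ratio of means of 2.10. The other Slc2a1 probe sets gave smaller differences, 0.65 and 0.36, also without overlap between groups. Slc2a1 kept its call in all 16 alternative settings, with values from 0.69 to 1.22. Slc2a3, a carrier of high glucose affinity, gave 8180, 9492 and 8632 in clone and 7292 and 7920 in transgenic cells. These values did not overlap either, but the difference of 0.20 (95% confidence interval -0.01 to 0.42) was not called (adjusted p = 0.112). Its other probe sets ran from -0.08 to 0.68, so that the sign depends on the probe set.

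Hexokinases trap glucose in the cell as glucose-6-phosphate. Hk1, the widely expressed isoform, was higher in clone by 0.46 (SE 0.10, adjusted p = 0.00591), with 4126, 4232 and 4364 against 2824 and 3365. Its second probe set gave a difference of 0.94. Without the first transgenic array the Hk1 call ended (0.33, adjusted p = 0.0689). Hk2, the isoform induced in growing cells, gave 444, 468 and 635 against 338 and 396, a difference of 0.46 like that of Hk1, with a wider interval (0.04 to 0.87) and no call (adjusted p = 0.0730). The ratio of Hk1 to Hk2 was the same in the group means (difference 0.00) and the arrays overlapped.

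Phosphofructokinase commits sugar to glycolysis, and its subunits come from 3 genes. Pfkm, the muscle type, was higher in clone (1069, 1143 and 1041 against 671 and 582; difference 0.77, SE 0.12, adjusted p = 0.000943). Pfkl, the liver type, was higher as well (1441, 1788 and 1460 against 1062 and 975; 0.60, SE 0.12, adjusted p = 0.00467). Both kept their calls in all 16 alternatives, although the other probe sets of Pfkl gave only 0.19 each. Pfkp, the platelet type, gave 2545, 2228 and 2860 against 2064 and 2285, which overlap, and a difference of 0.22 without a call (adjusted p = 0.179). Its other probe sets were at -0.13 and -0.26. The ratio of Pfkm to Pfkp was 0.55 higher in the clone mean without overlap between groups, whereas Pfkl to Pfkp overlapped.

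The bifunctional enzymes PFKFB3 and PFKFB4 set the level of fructose-2,6-bisphosphate, which activates phosphofructokinase. Pfkfb4 was lower in clone, with 338, 250 and 275 against 426 and 503 (difference -0.66, SE 0.18, adjusted p = 0.0152). The call ended without the second transgenic array (-0.55, adjusted p = 0.128). Pfkfb3 gave 254, 296 and 244 against 280 and 337, overlapping values with a difference of -0.21 (-0.60 to 0.19; adjusted p = 0.368).

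Aldolase, which cleaves the 6-carbon sugar, showed the widest divergence between isoforms. Aldoc, the aldolase known best from brain, gave 470.6 and 593.6 in the mice and 44.1, 52.3 and 98.2 in the clone vials. The difference was -2.75 (SE 0.30, adjusted p = 0.000149), the clone mean of 64.9 being 0.122 of the transgenic mean and under the dim limit of 88.2, which Aldoc passed only through the transgenic arrays. The third vial was the highest of the clone arrays. A second Aldoc probe set gave -1.65 but was under the dim limit on every array. The Aldoc call held in all 16 alternatives, with values from -3.09 to -2.36.

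Aldoa, the general isoform of the enzyme, moved the other way: 9770, 9818 and 10344 in clone against 7532 and 7684 (0.39, SE 0.08, adjusted p = 0.00376). All 5 of its probe sets lay above the transgenic arrays, by 0.17 to 0.99, and all are of the type marked as cross-hybridising (_x_at), so that transcripts of near-identical sequence may contribute. On each array the log2 ratio of Aldoa to Aldoc stood 3.46, 3.29 and 2.66 above the transgenic mean in the clone vials, and 0.15 above and below it in the mice.

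**Figure D2:**
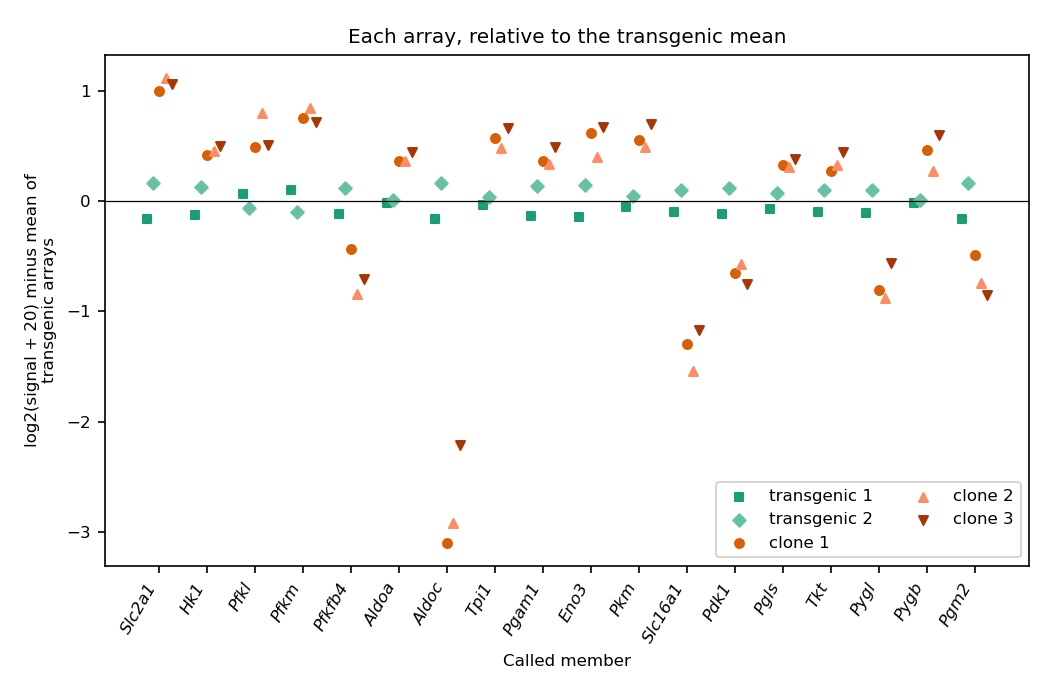
Values on each of the 5 arrays for the 18 called members (x axis), as log2(signal + 20) minus the mean of the transgenic arrays (y axis); squares and diamonds are the mice, circles and triangles the clone vials. The clone points lie on 1 side of both transgenic points for each gene, and Aldoc and Slc16a1 lie lowest.

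The lower steps convert the 3-carbon sugars to pyruvate, and Tpi1, Pkm and Pgam1 among their genes were higher in clone. Tpi1, triosephosphate isomerase, gave 6117, 5738 and 6530 against 4009 and 4205 (0.57, SE 0.09, adjusted p = 0.00108), and its other probe sets gave 0.79 and 0.80. Pkm, pyruvate kinase of muscle and most other tissues, gave 5902, 5650 and 6521 against 3866 and 4141 (0.59, SE 0.09, adjusted p = 0.00124). Its splice forms M1 and M2 were not told apart here. Both held their calls in all 16 alternatives. Pgam1, phosphoglycerate mutase, was higher by 0.40 (4176, 4086 and 4563 against 2935 and 3560; adjusted p = 0.0162). That call ended without the first transgenic array (0.26, adjusted p = 0.160), without the third clone array (0.35, adjusted p = 0.0528) and without the intensity trend (adjusted p = 0.0585).

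Pgk1, phosphoglycerate kinase, did not follow. It gave 10658, 10193 and 11437 against 10223 and 9932, overlapping values with a difference of 0.09 (-0.10 to 0.28; adjusted p = 0.401). Its other probe sets gave -0.02 and 0.39. Gapdh was read only from control probe sets, which were left out of the fit: the 5′ set gave 17806 to 21100 in clone and 18667 to 20718 in transgenic cells, and the middle and 3′ sets differed by 0.24 and 0.11. The highest signal of any probe set on each array was 25836 to 30579.

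Enolase is represented by its muscle and neuronal forms. Eno3, the muscle form, was higher in clone (976, 840 and 1020 against 568 and 700; 0.56, SE 0.14, adjusted p = 0.0114), a call that ended without the first transgenic array (0.42, adjusted p = 0.108). Eno2, the neuronal form, gave 173, 248 and 178 against 223 and 270, which overlap (-0.29, -0.78 to 0.20; adjusted p = 0.309). The ratio of Eno2 to Eno3 was lower in clone by a mean of -0.85 and did not overlap between groups.

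At the end of glycolysis, lactate dehydrogenase reduces pyruvate. Ldha, the form that favours lactate, gave 9066, 9500 and 9857 in clone and 9558 and 9588 in transgenic cells. The mice lay inside the range of the vials, and the difference was -0.02 with an interval of -0.20 to 0.16 (adjusted p = 0.893). Ldhb, the heart form, gave 301, 465 and 389 against 425 and 415 (-0.14, -0.57 to 0.29; adjusted p = 0.592). The other Ldhb probe set above the dim limit gave -1.15. That set had a clone mean of 60.9 and passed the limit only through the transgenic arrays. The mean over the Ldhb probe sets, which includes it, was called lower (-0.64, adjusted p = 0.0436). This call therefore rests in part on a dim signal.

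Monocarboxylate carriers move lactate across the membrane. Slc16a1, encoding MCT1, fell to 954, 798 and 1042 in clone from 2211 and 2531 in the mice, without overlap. The difference was -1.33 (SE 0.13, adjusted p = 0.000104), a ratio of means of 0.393, and was called in all 16 alternatives (-1.43 to -1.23). Slc16a3, encoding the lactate exporter MCT4, was dim and overlapped, at 168, 114 and 124 against 170 and 123 (-0.10, -0.68 to 0.48; adjusted p = 0.781). Pdk1, a kinase that turns off pyruvate dehydrogenase, gave 346, 369 and 322 against 510 and 606 (-0.66, SE 0.15, adjusted p = 0.00683). Its 3 other probe sets gave -1.07, -1.36 and -1.47, larger than the brightest. The set at -1.36 had a clone mean of 59.0 and passed the dim limit only through the transgenic arrays. The Pdk1 call ended without the second transgenic array (-0.54, adjusted p = 0.0801).

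**Figure D3:**
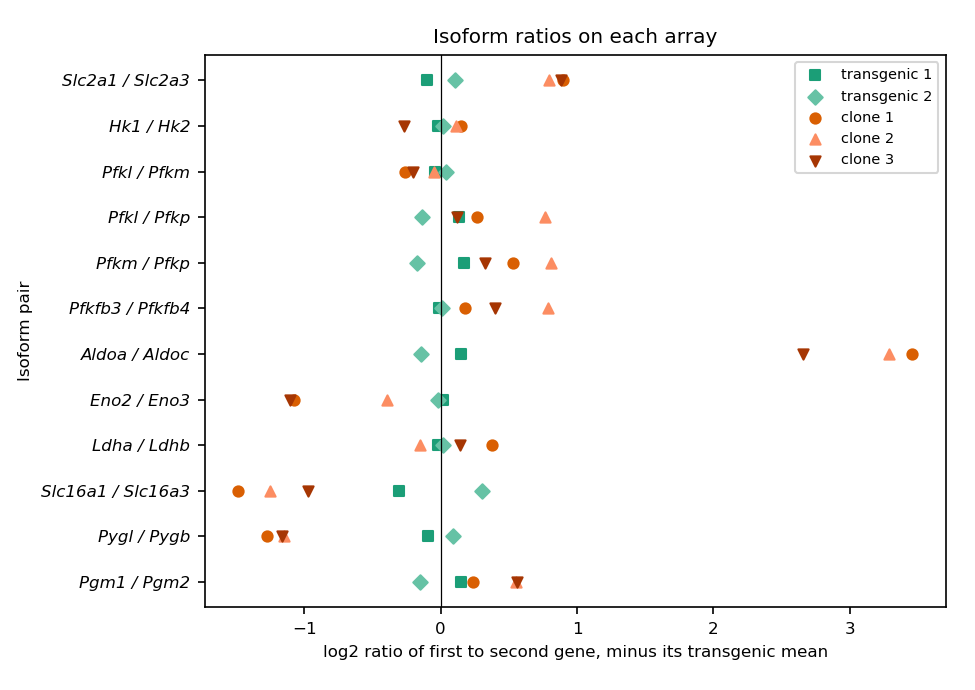
Log2 ratio of the first to the second gene of each of 12 isoform pairs on each array, minus the mean of that ratio on the transgenic arrays (x axis); symbols mark the 3 clone vials and the 2 mice. Aldoa to Aldoc lies 2.66 to 3.46 above 0 in clone and Slc16a1 to Slc16a3 at -1.48 to -0.98.

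Of 15 isoform pairs listed, 12 had both genes measured, and in 9 the ratio on the clone arrays did not overlap with that on the transgenic arrays. Of all tested genes taken singly, 64.5% did not overlap, and no such share is given here for ratios of other genes. Besides Aldoa to Aldoc (a mean difference of 3.14), the 9 pairs included Slc2a1 to Slc2a3 (0.86), Slc16a1 to Slc16a3 (-1.24) and Pygl to Pygb (-1.20). An exact two-sided permutation test over the 10 arrangements of 3 against 2 arrays gave p = 0.1 for these 4 pairs, the smallest it can give, and an adjusted p of 0.267 over the 12 pairs, so no pair could pass. In 3 pairs the members' differences had opposite signs: Aldoa and Aldoc, Eno2 and Eno3, and Pygl and Pygb. A ratio shows unequal change and does not compare the levels of the isoforms, since probe sets differ in brightness.

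In the oxidative branch of the pentose phosphate pathway, which makes NADPH, Pgls, the lactonase of the second step, was higher in clone (3075, 3037 and 3182 against 2320 and 2565; 0.34, SE 0.09, adjusted p = 0.0147). Pgd, the dehydrogenase of the third step, gave 1339, 1133 and 1334 against 1353 and 1563, lower on each clone array without a call (-0.20, adjusted p = 0.222). H6pd, which runs the first steps inside the endoplasmic reticulum, gave 317, 232 and 199 against 349 and 290, which overlap (-0.35, adjusted p = 0.225).

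In the non-oxidative branch, which interconverts sugars, Tkt, encoding transketolase, was higher (12445, 12975 and 14065 against 9641 and 11031; 0.35, SE 0.09, adjusted p = 0.0162). Its other probe sets gave 0.56 and 0.48. The calls of Tkt and Pgls both ended without the first transgenic array (0.25, adjusted p = 0.162, and 0.27, 0.132) and without the intensity trend (0.0689 and 0.0522), and that of Tkt also without the third clone array (0.0640). Taldo1 (transaldolase, 0.09), Rpia (0.12) and Rpe (-0.28), which handle ribose and ribulose phosphates, were not called and overlapped. The brightest Rpe probe set turned on the third clone array, with 1112, 1155 and 1663 against 1559 and 1583. Without that array Rpe was called lower (-0.46, adjusted p = 0.0124). Another Rpe probe set above the dim limit did not overlap, at 990.9, 892.5 and 1031.9 against 1155.9 and 1084.5 (-0.20).

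Glycogen genes parted by isoform as well. Pygb, the brain type phosphorylase, was higher in clone (2445, 2133 and 2691 against 1746 and 1782; 0.45, SE 0.11, adjusted p = 0.0129). Pygl, the liver type, was lower (206, 195 and 248 against 348 and 405; -0.75, SE 0.18, adjusted p = 0.00911). The Pygb call ended without either transgenic array (adjusted p = 0.0779 and 0.0604), and the Pygl call without the second transgenic array (-0.64, adjusted p = 0.0898). Pygl is also made by myeloid cells, and most myeloid markers were higher on the transgenic arrays as given above. The part of such cells in the Pygl, Aldoc, Slc16a1 and other lower signals was not tested.

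Pgm1 and Pgm2, of the phosphoglucomutase family, were listed with the glycogen genes. Pgm2 was lower in clone (455, 377 and 350 against 573 and 726; -0.69, SE 0.17, adjusted p = 0.00981), until the second transgenic array was left out (-0.53, adjusted p = 0.105). Pgm1 gave 990, 1032 and 964 against 1169 and 1197, lower on every clone array without a call (-0.25, -0.48 to -0.01; adjusted p = 0.0825). Its second probe set was at -0.58, and the mean over both was called (-0.41, adjusted p = 0.0196). Gys1, encoding glycogen synthase, varied most between arrays, from 76.9 to 289.5 in clone and from 102 to 180 in the mice (0.26, -0.79 to 1.31; adjusted p = 0.685).

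**Figure D4:**
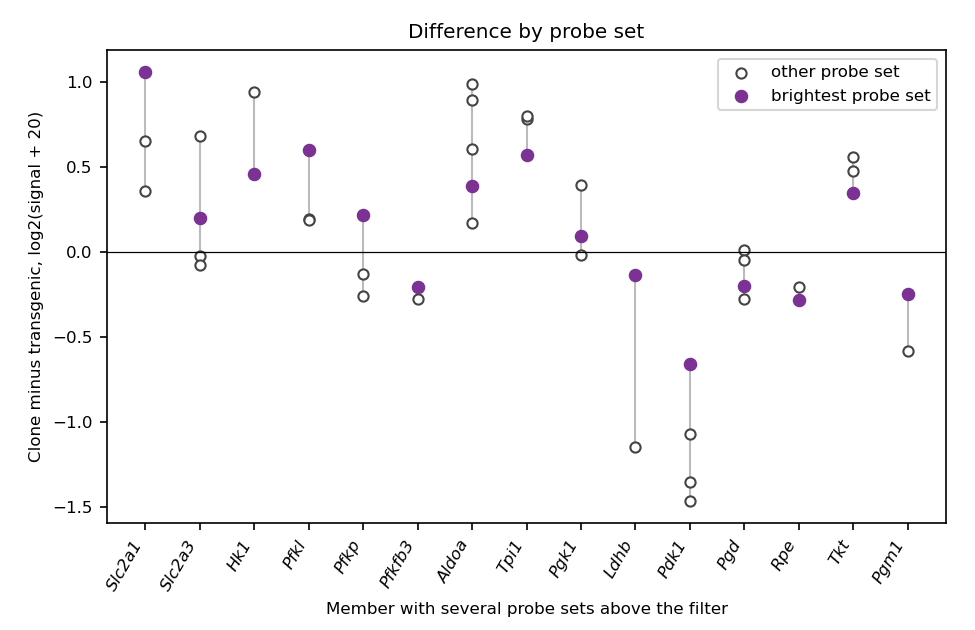
Difference between clone and transgenic cells by probe set (y axis, log2(signal + 20)) for the 15 members with several probe sets above the dim limit (x axis); the filled point is the brightest, which carried the result. Pdk1, Aldoa, Slc2a1, Slc2a3 and Ldhb spread by over 0.5, and Slc2a3, Pfkp, Pgk1 and Pgd have points on both sides of 0.

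The 2 mice differed from each other across the list. In 27 of the 34 members the second mouse was above the first, with a median of 0.14 over the 34 and of 0.01 over all genes. The median of each clone vial against the mean of the other vials was -0.02, -0.09 and 0.06. Slc2a1, Pfkl, Pfkm, Aldoa, Tpi1 and Pkm kept their higher calls without the first transgenic array. Aldoc and Slc16a1 kept their lower calls without the second. Calls over all tested genes became fewer under these fits too, so the loss was not particular to the members.

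**Figure D5:**
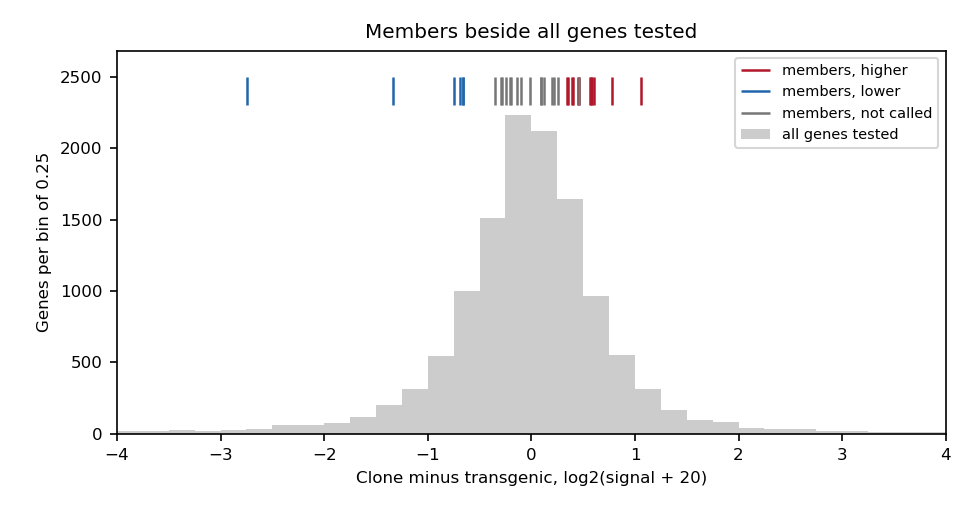
Distribution of the difference, clone minus transgenic, over all 12446 genes tested (grey bars, genes per bin of 0.25 on the log2 scale), with the 34 members as ticks above, red higher, blue lower and grey not called; genes beyond the ends of the axis are not drawn. The members lie between -2.75 and 1.06, around a median of 0.11.

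Other genes of these pathways and their regulators were read from lists drawn up by function, and 80 of 109 were tested: 17 were higher (21.2%), 16 lower (20%) and 47 not called, with a median of -0.06. These shares are near those of all tested genes, 22.0% and 21.7%. Among enzymes and transporters around pyruvate, 6 of 16 were higher and 1 was lower. Mpc1, a subunit of the mitochondrial pyruvate carrier and named after its values were seen, was higher by 1.15 (4277, 4235 and 4351 against 1911 and 1930; adjusted p = 1.65e-05). Pdp1, the phosphatase that turns pyruvate dehydrogenase on and so opposes PDK1, was higher by 1.26 (adjusted p = 0.000203), and Gpd2, the mitochondrial arm of the glycerol phosphate shuttle, by 2.04 (adjusted p = 3.45e-05). Gpd1l was lower (-0.52).

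The remaining lists were mixed, beside 22.0% of all tested genes called higher and 21.7% lower. Of 10 further glycolysis genes 0 were higher and 2 lower, Hk3, the hexokinase of myeloid cells (-0.57, adjusted p = 0.0422), and Ldhd (-1.05). A list of sugar and monocarboxylate carriers and sugar entry genes had 5 higher and 2 lower of 16. Slc16a6, of the monocarboxylate carrier family (1.19), and the phosphomannomutase gene Pmm1 (1.04) led the higher side. Slc37a4, the glucose-6-phosphate carrier (-0.64), led the lower. Of 6 pentose phosphate neighbours, Rbks was higher (0.69) and Idnk lower (-0.60). Glycogen genes were lower in 5 of 13 and higher in 2. Gyg, the primer of glycogen (-0.66), and Epm2a, the glycogen phosphatase laforin (-1.10, with a clone mean of 86.4, under the dim limit), were lower, and Ppp1r3b, which targets a phosphatase to glycogen, was higher (1.82, adjusted p = 0.000215).

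Of 19 regulators, 3 were higher, 5 lower and 11 not called, or 42.1% called beside 43.8% of all tested genes. Hif1a was higher by 0.49 (9712, 11372 and 11764 against 8006 and 7578; adjusted p = 0.00472), and Irf4, a receptor-induced factor, by 2.21. Egln3, an oxygen-sensing hydroxylase and itself a HIF target, was lower (84.6, 41.4 and 85.8 against 801 and 929; -3.33, adjusted p = 3.31e-05). Its clone mean of 70.6 was under the dim limit, which it passed only through the transgenic arrays. Txnip, a sugar-induced inhibitor of glucose uptake, was lower by a difference of -1.65 (adjusted p = 5.89e-05) and Nfe2l2, a driver of antioxidant and pentose phosphate genes, by -1.41. Myc, also named after its values were seen, was not called (0.19, adjusted p = 0.476), with 4263, 2452 and 3072 in clone and 2631 and 2943 in transgenic cells.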

How the data were processed

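Total RNA (8 µg) from 3 vials of the clone and 2 transgenic spleen cultures was read on one-colour Affymetrix mouse arrays, per the labels. The deposited values are array intensity, 1 linear signal per probe set, made by the authors with GCOS, per the submitters' processing notes (version not given in the sources used here). From the values, each array was scaled to a 2% trimmed mean of 500; they are uncentred and carry no detection calls. Column medians are 140.7 and 141.9 (transgenic) and 132.6, 132.3 and 133.0 (clone). The 3′ to 5′ signal ratio of the Gapdh control sets was 0.763 and 0.775 in transgenic and 0.819 to 0.869 in clone arrays. The number of arrays limits the precision. No source used here names a batch.

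Of 45101 probe sets, 64 controls were left out, 34945 have 1 symbol, 932 several and 9160 none in the platform annotation; the gene identifier in RefSeq (GRCm38.p6) changed 0 symbols. Values were taken as log2(signal + 20), probe sets kept at a mean of at least 88.2 (the 40th percentile), and the brightest taken per gene. Groups, from the sample titles, were compared with limma 3.58.1 (lmFit, eBayes with trend; R 4.3.3), with 3 residual degrees of freedom. The vials share 1 clone, so p-values measure only how these 5 samples vary. The fit was tested on simulated data with known changes. Isoform ratios were tested by exact permutation. Figures used matplotlib 3.10.9 in Python 3.11.15.

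The members, lists, pairs and alternatives were chosen with earlier results of these data known. All members are named; of other lists, up to 3 called genes in each direction qualified, and of each marker list the 2 brightest and those that differed by over 2 without overlap, not all of which are named. Itgam, Mpeg1, Cd68, Mpc1 and Myc fall outside this rule and were named after their values were seen.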

Additional observations from a re-analysis of the deposited data

How the results depend on the processing

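The count of members called higher, 12, fell to 7 with the replicate block, and ranged from 6 to 13 over the fits that leave out 1 array. The block took the calls of Aldoa, Pgam1, Pgls, Tkt and Pygb, and called Rpe lower (-0.46). The count called lower, 6, ranged from 2 to 7 over those fits. For the pathway neighbours and regulators the counts ranged from 14 to 18 higher and from 10 to 17 lower. The count of members higher fell most without the first transgenic array. Those of members lower and neighbours lower fell most without the second. Calls over all tested genes became fewer under these fits as well. Under the other alternatives these counts stayed within 1.5 times their values. A fit without 1 transgenic array assumes that the lone mouse varies like the vials. Replicate numbers do not pair vials with mice: deviations of same-numbered arrays correlated at -0.03 and -0.08.

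Of the 18 called members, 5 higher and 2 lower kept their calls under every alternative that could be run, and 11 lost theirs under at least 1; none changed direction. Aldoa has no value without cross-hybridising probe sets, since all of its probe sets are of that type. Uncalled members that changed sign were Slc2a3 without probe sets of the _x_at and _s_at types (-0.026), Pfkp with the mean over probe sets (-0.057) and Pgk1 under quantile normalization (-0.0052). Over the fits that leave out 1 array, values ran from -0.045 to 0.016 for Ldha, from -0.28 to 0.020 for Ldhb, from -0.31 to 0.11 for Slc16a3, from -0.015 to 0.20 for Taldo1 and from -0.11 to 0.73 for Gys1. The Hk1 to Hk2 ratio, near 0, took the other sign under quantile normalization (-0.19), a pseudocount of 1 (-0.017) and a floor of 50 (-0.018), and ran from -0.075 to 0.13 over the fits without 1 array, so no direction is read from it. The Ldha to Ldhb ratio, 0.12 in the main setting, was at -0.10 under quantile normalization and at 0.63 with the mean over probe sets. It ran from -0.0042 to 0.26 over those fits. The cause of these changes was not tested.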
